A study of Homo sapiens with 15 samples.

Results

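The genes described here are the nuclear genes for the structural subunits of the mitochondrial respiratory chain and the ATP synthase. They were picked out by symbol (NDUFA, NDUFB, NDUFC, NDUFS and NDUFV followed by a number, SDHA to SDHD, 8 UQCR genes, 10 COX genes and 11 ATP5 genes). The rule found 74 entries of 57905 listed genes, and 70 members remained when the entry with the highest mean FPKM stood for each of 4 repeated symbols (NDUFA7, NDUFB8, SDHD and UQCR11). Of these, 36 belonged to complex I, 4 to complex II, 8 to complex III, 11 to complex IV (NDUFA4 counted here) and 11 to complex V.

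The cells were SW480, a human colorectal cancer line. RNA was sequenced in 12 libraries, 3 in each of 4 groups. Control libraries came from wild-type cells given PBS, and LPS libraries from wild-type cells given lipopolysaccharide, a bacterial wall component, at 1 µg/ml for 4 h. PINT shRNA1 libraries came from cells stably carrying a lentiviral hairpin against the long non-coding RNA PINT, given PBS, and PINT shRNA1+LPS libraries from such cells given LPS in the same way. None of the libraries used here carries a hairpin with another target or no target, so the hairpin, its delivery and the choice of carrying cells cannot be told apart. Whether the replicates of a group were cultured separately is not stated in the labels, and a p-value here therefore reflects library-to-library spread that may be technical.

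The respiratory chain sits in the inner mitochondrial membrane. Complex I takes electrons from NADH and complex II takes them from succinate. Both pass them through ubiquinone to complex III, cytochrome c and complex IV, where oxygen is reduced. Complexes I, III and IV pump protons, and complex V, the ATP synthase, uses the gradient to make ATP. The mitochondrial genome supplies 13 of the subunits and the nucleus the others, so both genomes contribute to complexes I, III, IV and V. In intestinal epithelium and in tumours derived from it the chain works beside glycolysis as a source of ATP.

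Levels are given in FPKM, a sequenced-fragment count scaled by transcript length and by library size, as deposited. The targeted gene, LINC-PINT, ran from 1.91 to 2.88 FPKM across Control and LPS. Under the label PINT shRNA1 it ran from 4.55 to 5.34 without LPS and from 3.54 to 4.08 with it. It stood 0.81 ± 0.118 (log2, SE) above Control and 0.61 ± 0.118 above LPS in the libraries labelled PINT shRNA1 (limma, adjusted p = 0.000592 and 0.00284). The direction goes against the label, so the group names below are labels only. Relative depth, read from the steps of low values, was 0.809 to 1.05 in the first 3 groups and 1.3 to 1.51 in PINT shRNA1+LPS, and read totals are unknown. Genes above 0 numbered 27078 to 28430 without the hairpin label and 30725 to 31961 with it. Markers of epithelium (EPCAM, KRT8, KRT18, KRT19, CDH1, VIL1 and CDX2, all above 0 in every library) summed to 2343 to 2667 FPKM in Control and 2363 to 2407 in LPS. With the hairpin label they summed to 1441 to 1536 (PBS) and 1547 to 1606 (LPS). Leukocyte markers summed to at most 2.09 FPKM, fibroblast markers to 1.3 and endothelial markers to 0.0593 in any library, with CDH5 at 0 in every library labelled without the hairpin.

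Promoters were examined because nuclear respiratory genes are known to share binding motifs, among them those of NRF1, the ETS factor GABP and YY1. RefSeq windows (GRCh38.p14, 250 bases before to 50 after the gene start) matched 59 of the 70 members. Members without an entry included ATP5B, COX6C, SDHC and UQCRB. The NRF1 motif GCATGCGC, on either strand, stood in 13 of the 59 (22%), against 3.68% of 27305 genes with a window of the same length. The ETS motif CCGGAAGT stood in 11 (18.6%, against 4.95%) and the YY1 motif AAGATGGC in 12 (20.3%, against 3.52%). At least 1 of these 3 was present in 29 members (49.2%, against 11.2%). The shorter GC box GGGCGG was present in 38 (64.4%, against 48.3%). The 27305 genes were not chosen by expression or type of gene, whereas all members are coding genes expressed in these cells. A background matched in these respects was not tested. None of the 4 motifs holds another of them, and a match is a description of letters, not a site.

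The 210 bases before the start are shown for 5 of the 8 members that were called in the same direction in both comparisons of the hairpin label described further on. UQCR10, NDUFA8 and SDHB were higher in the libraries labelled PINT shRNA1, and COX6B1 and ATP5H were lower. Capitals mark the motifs named above where they lie wholly within the stretch, read 5′ to 3′ on the strand of the gene (GRCh38.p14, RefSeq).
UQCR10: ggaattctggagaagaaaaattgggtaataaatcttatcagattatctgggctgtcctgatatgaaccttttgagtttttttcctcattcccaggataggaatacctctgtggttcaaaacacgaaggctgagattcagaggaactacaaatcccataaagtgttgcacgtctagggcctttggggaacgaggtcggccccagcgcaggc
NDUFA8: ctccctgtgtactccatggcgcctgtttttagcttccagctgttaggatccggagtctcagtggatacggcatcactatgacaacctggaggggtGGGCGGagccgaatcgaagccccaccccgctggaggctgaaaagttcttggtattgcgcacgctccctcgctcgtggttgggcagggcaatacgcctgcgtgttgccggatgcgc
SDHB: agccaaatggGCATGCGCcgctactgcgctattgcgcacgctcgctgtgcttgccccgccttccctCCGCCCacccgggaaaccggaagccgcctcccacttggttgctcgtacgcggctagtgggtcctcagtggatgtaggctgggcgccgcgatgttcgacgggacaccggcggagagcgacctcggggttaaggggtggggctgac
COX6B1: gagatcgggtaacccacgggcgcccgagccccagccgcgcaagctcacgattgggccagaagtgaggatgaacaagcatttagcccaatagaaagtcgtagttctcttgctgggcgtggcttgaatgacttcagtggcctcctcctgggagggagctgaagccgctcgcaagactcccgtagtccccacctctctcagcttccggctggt
ATP5H: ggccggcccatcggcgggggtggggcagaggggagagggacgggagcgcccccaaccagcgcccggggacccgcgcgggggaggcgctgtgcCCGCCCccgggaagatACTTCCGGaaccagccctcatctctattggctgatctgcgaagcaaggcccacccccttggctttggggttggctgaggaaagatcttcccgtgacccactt
The UQCR10 stretch is at chr22:29767159-29767368 on the plus strand and that of COX6B1 at chr19:35648113-35648322 on the plus strand. Neither holds any of the 4 motifs. The SDHB stretch, at chr1:17054033-17054242 on the minus strand, holds the NRF1 motif at position -200 and a GC box at -144, counted from the start. The ATP5H stretch, at chr17:75046970-75047179 on the minus strand (listed by RefSeq as ATP5PD), holds the ETS motif at -102 and a GC box at -118. The NDUFA8 stretch, at chr9:122159780-122159989 on the minus strand, holds a GC box at -115, and its window also holds NRF1 motifs on both strands that begin at -4 and -2 and cross the start. In PINT shRNA1 against Control the NRF1 motif was in 2 of 9 higher members, 0 of 3 lower members and 11 of 47 members that were not called, and in PINT shRNA1+LPS against LPS in 3 of 8, 1 of 7 and 9 of 44. The ETS motif was in 1 of 9, 1 of 3 and 9 of 47, and then in 1 of 8, 2 of 7 and 8 of 44. The YY1 motif was in 3 of 9, 0 of 3 and 9 of 47, and then in 2 of 8, 1 of 7 and 9 of 44.

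All 70 members were expressed above the median of the 17214 genes tested (5.59 FPKM), and all passed the filter for testing (at least 0.5 FPKM in at least 3 libraries). FPKM is scaled by transcript length, but that scaling does not account for GC content, exon overlap or copies elsewhere in the genome. The order of members and complexes below therefore describes FPKM only, and the part of these effects in it was not tested. ATP5B, the catalytic beta subunit of the ATP synthase, was the most abundant at 235.5 FPKM over the 12 libraries. UQCRH, the hinge protein of complex III, followed at 136.9 and COX6A1, a subunit of cytochrome c oxidase, at 123.9. NDUFS7, a core iron-sulfur subunit of complex I, was the least abundant at 6.19. Complex V had the highest median level, 78.9 FPKM (ATP5D at 15.1 to ATP5B), and complex I the lowest, 33.3 (NDUFS7 to NDUFV2 at 110.2). The medians were 54.98 for complex IV (COX7B at 31.3 to COX6A1), 49.5 for complex II (SDHC at 31.9 to SDHD at 76.9) and 39.0 for complex III (UQCR11 at 28.0 to UQCRH). Members of complex I differed 17.8 times in FPKM from lowest to highest.

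**Figure D1:**
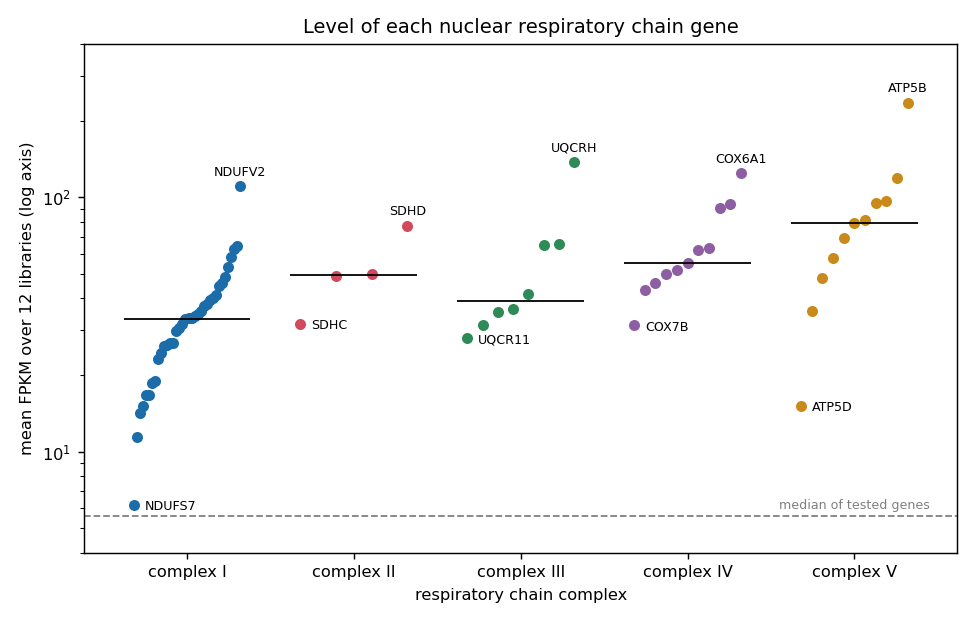
Each point is 1 of the 70 genes, placed by complex on the x axis and by its mean FPKM over the 12 libraries on a log y axis, and black lines are the medians of each complex. Every gene lies above the dashed line at 5.59 FPKM, the median of the tested genes, and complex V reaches highest with ATP5B at 235.5.

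Most members varied little across libraries. The highest of the 12 libraries was 1.34 times the lowest at the median member, and under 1.5 times the lowest in 60 of 70. This ratio was not taken over other genes of like level, so it does not set the members apart from them. SDHC, a membrane anchor of succinate dehydrogenase, ranged most. SDHC was at 25.0, 40.8 and 21.0 FPKM in Control, 45.9, 48.5 and 28.8 in LPS, 28.1, 34.4 and 19.99 in PINT shRNA1, and 36.4, 32.1 and 21.5 in PINT shRNA1+LPS. High and low libraries stood in every group, and all 4 groups overlapped. NDUFS1, the largest core subunit of complex I, reached 46.9 FPKM in LPS replicate 2 and 37.4 in PINT shRNA1 replicate 3, against 19.6 to 32.7 in the other libraries. Its exons share positions with EEF1B2 on the opposite strand (mean of 342.8 FPKM), and the part of this overlap was not tested. The summed FPKM of the 70 members was 3419 to 3568 in Control and 3437 to 3562 in LPS. With the hairpin label it was 3487 to 3741 (PBS) and 3438 to 3581 (LPS). Those sums overlapped among all groups, and were 0.811% to 0.895% of all FPKM.

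No member was called on LPS. Each change below is a difference of group means of log2(FPKM + 0.5), given ± its SE from limma. A call means an adjusted p below 0.05, with the adjustment made over all 17214 genes. Of all tested genes 2.76% were called in LPS against Control, 1.57% higher and 1.19% lower, so 0 of 70 stands beside a low background. Unadjusted p was under 0.05 for 5 members. The median change of the members was -0.03 (all genes: -0.04), and the 95% interval lay within ±0.5 for 62 of 70. Groups did not overlap for 10 members (4 higher in LPS, 6 lower), against 19.2% of all genes.

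The member with the smallest p on LPS was NDUFS4, an accessory subunit of the NADH-oxidizing module. It was at 20.8, 22.8 and 22.3 FPKM in Control and at 17.9, 17.3 and 16.9 in LPS. The groups did not overlap, and the change was -0.33 ± 0.084 (limma, adjusted p = 0.0696). Without PINT shRNA1 replicate 1, which enters only through the shared spread, NDUFS4 passed the threshold (limma, adjusted p = 0.0126). Without Control replicate 3 ATP5D, the delta subunit of the ATP synthase, did so at -0.48 (limma, adjusted p = 0.0439). ATP5F1, subunit b of the stalk that holds the ATP synthase together, was at 48.4, 39.3 and 52.9 FPKM in Control and 53.8, 62.3 and 69.4 in LPS. Its LPS values lay above every Control value, at 0.40 ± 0.121 (limma, adjusted p = 0.119). The members with the smallest p in the other complexes were SDHC (0.52 ± 0.298), COX7C of complex IV (-0.18 ± 0.095) and UQCRH (0.08 ± 0.041), with limma adjusted p of 0.421, 0.367 and 0.389.

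LPS was also compared among the libraries labelled PINT shRNA1. In PINT shRNA1+LPS against PINT shRNA1 0 of 70 members were called, beside 0.186% of all genes (0.163% higher, 0.0232% lower). Unadjusted p was under 0.05 for 8, the median was -0.04 (all genes: -0.04), and groups did not overlap for 14 (4 higher, 10 lower), against 19.3% of all genes. The members with the smallest p within each complex were UQCRH (-0.12 ± 0.041), ATP5H (-0.10 ± 0.036), COX7A2 (-0.18 ± 0.067), NDUFB8 (0.16 ± 0.066) and SDHD (-0.12 ± 0.126), at limma adjusted p of 0.436 to 0.828. The interaction, the difference between both LPS responses, was called for 0 of 70, beside 0.128% of all genes (0.0349% higher, 0.0929% lower), with 8 members at an unadjusted p under 0.05. It was nearest to the threshold for NDUFS8, a core subunit of complex I that carries iron-sulfur clusters, at 0.41 ± 0.115 (limma, adjusted p = 0.363).

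The hairpin label went with small changes in both directions. In PINT shRNA1 against Control 12 of 70 members were called, 9 higher and 3 lower. Of all genes 27.3% were called (16.9% higher, 10.3% lower), and of the 8229 tested genes at or above the level of the lowest member 34.4%. The members' 12 of 70 (17.1%) lay below both shares. Groups did not overlap for 14 members (9 higher, 5 lower), against 41.3% of all genes. The median change was 0.04 (all genes: 0.06), and the median size without sign was 0.10, against 0.20 for all genes. With each library scaled to a common median of tested genes the split became 7 higher and 5 lower (all genes: 2232 and 2135). A common total gave 10 and 2 (all genes: 3226 and 1626). Removal of each library's GC trend, an alternative added after the data were seen, gave 7 and 10 (all genes: 2171 and 2274). The main fit called 2913 of all genes higher and 1780 lower, so the split of all genes moved with the scaling too.

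In PINT shRNA1+LPS against LPS 16 of 70 members were called, 8 higher and 8 lower. Of all genes 29.2% were called (17.7% higher, 11.6% lower), and 36.2% of those at or above the lowest member, so the members' 22.9% again lay below. Groups did not overlap for 30 members (18 higher, 12 lower), against 45.7% of all genes. The median change was 0.02 (all genes: 0.05). Scaling to a common median gave 4 higher and 12 lower, a common total 10 and 6, and removal of the GC trend 3 and 10. For all genes these settings gave 2385 and 2549, 3281 and 1819, and 2280 and 2508, against 3039 and 1994 in the main fit. Without any 1 of the 3 PINT shRNA1+LPS replicates 10 members were called. Calls among all genes also fell, from 5033 to 3775, 3800 and 3895. Relative depth was higher in PINT shRNA1+LPS than in LPS, as given above, and its part in the result was not tested. The summed level of the epithelial markers was lower in the libraries labelled PINT shRNA1 in both comparisons, a sum that KRT8, KRT18, KRT19 and EPCAM dominate. Of the other listed markers VIL1 was also lower, while CDX2 was higher with no overlap in both comparisons (9.01 to 11.7 FPKM in Control and 12.3 to 15.04 FPKM in PINT shRNA1, 8.32 to 9.15 FPKM in LPS and 13.4 to 14.2 FPKM in PINT shRNA1+LPS) and CDH1 overlapped. The part of these markers in the members' changes was not tested. In bulk RNA fewer cells of a type and less RNA per cell cannot be told apart.

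**Figure D2:**
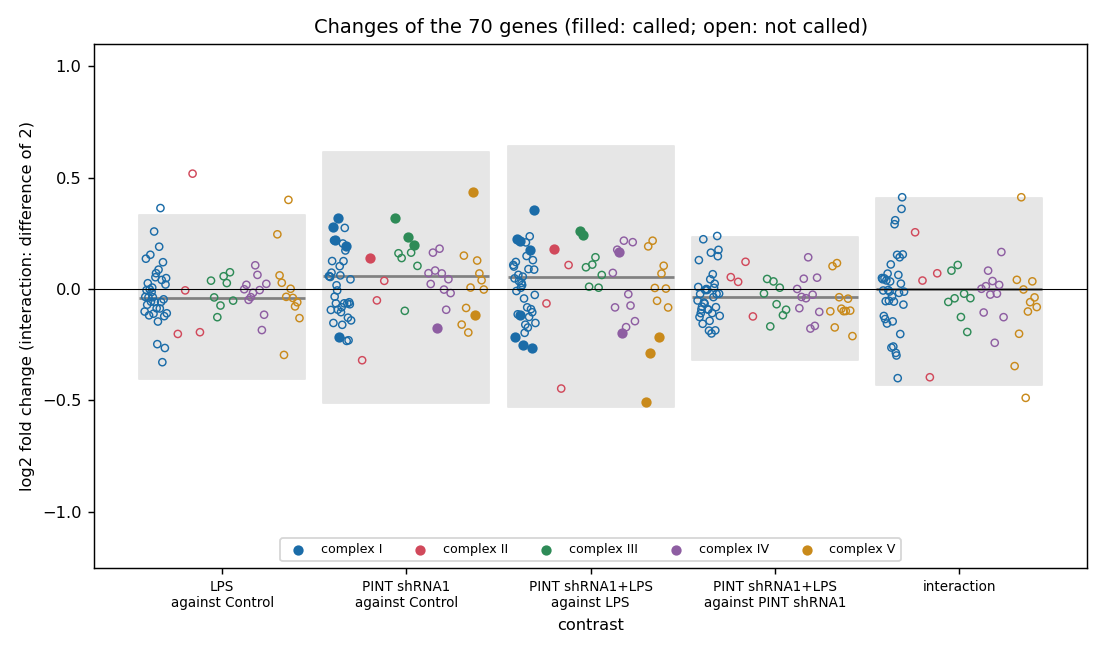
The y axis gives the log2 fold change of each of the 70 genes in the 5 contrasts of the x axis (for the interaction, a difference of 2 log2 fold changes), coloured by complex and filled where called, with the median of all tested genes as a grey line and their 5th to 95th percentile as a grey band. Filled points stand only in both comparisons of the hairpin label, 12 and 16 of 70, between -0.50 and 0.44.

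The comparisons of the hairpin label share no library, but the same fit gave both, with a shared estimate of each gene's spread. Calls in both are therefore not independent. In both comparisons 8 members were called in the same direction, 5 higher and 3 lower, with 0 in opposite directions. They are 66.7% of the members called in the first comparison and 50% of those called in the second. For all genes the shares were 70.9% and 66.1%, and 19.3% of all genes were called the same way in both. The sign was the same for 49 of 70 members (70%), against 77.3% of all genes. Across the 70 members Pearson's r between the changes was 0.399 and Spearman's rho 0.448, against 0.693 and 0.689 over all tested genes. Genes share libraries and are not independent, so these are descriptions only.

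Among the 8 members called in both comparisons, UQCR10 of complex III had the largest rise in each. UQCR10 (ENSG00000184076), a small subunit of complex III, was at 32.8, 32.1 and 29.5 FPKM in Control and at 39.2, 36.8 and 42.1 in PINT shRNA1. In LPS it was at 32.7, 33.1 and 31.1, and in PINT shRNA1+LPS at 38.8, 38.2 and 39.4. Every library labelled with the hairpin lay above every library without it. UQCR10 rose by 0.32 ± 0.056 against Control and by 0.26 ± 0.056 against LPS (limma, adjusted p = 0.00204 and 0.00575).

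Accessory subunits of the membrane arm of complex I moved both ways. NDUFA8 (ENSG00000119421), which faces the intermembrane space, was at 52.3, 48.4 and 49.0 FPKM in Control, 47.3, 48.4 and 48.1 in LPS, 57.4, 56.1 and 61.3 in PINT shRNA1, and 57.3, 53.6 and 56.6 in PINT shRNA1+LPS. The libraries with and without the hairpin label did not overlap, and NDUFA8 rose by 0.22 ± 0.046 in both comparisons (limma, adjusted p = 0.00517 and 0.00518). NDUFA3 (ENSG00000170906) was at 17.3, 17.8 and 17.1 FPKM in Control, 16.9, 17.6 and 16.3 in LPS, 19.8, 21.3 and 22.7 in PINT shRNA1, and 18.7, 19.99 and 21.1 in PINT shRNA1+LPS. It rose by 0.28 ± 0.061 and 0.22 ± 0.061 (limma, adjusted p = 0.00654 and 0.0181), and the second call was lost under 5 of 27 alternatives, which were median scaling, removal of the GC trend, and leaving out LPS replicate 3 or PINT shRNA1+LPS replicate 2 or 3. NDUFB3 (ENSG00000119013), of the same arm, was lower. NDUFB3 was at 40.9, 39.4 and 38.1 FPKM in Control and 35.8, 33.0 and 32.9 in PINT shRNA1, and at 36.6, 36.1 and 41.2 in LPS and 31.1, 30.2 and 34.2 in PINT shRNA1+LPS. Its groups did not overlap within either comparison, and it fell by 0.22 ± 0.065 and 0.25 ± 0.065 on the log2 scale (limma, adjusted p = 0.0303 and 0.0146), calls lost under 6 and 3 of 27 alternatives.

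NDUFS3 (ENSG00000213619), a core subunit of the ubiquinone-binding module, was at 29.8, 32.9 and 29.6 FPKM in Control, 32.3, 31.4 and 31.3 in LPS, 36.9, 32.9 and 36.04 in PINT shRNA1, and 34.6, 35.5 and 37.4 in PINT shRNA1+LPS. In the first comparison 1 library of PINT shRNA1 overlapped Control replicate 2, and in the second the groups were apart. NDUFS3 rose by 0.19 ± 0.057 and 0.18 ± 0.057 (limma, adjusted p = 0.0286 and 0.0393), and each call was lost under 11 of 27 alternatives. SDHB (ENSG00000117118), the iron-sulfur subunit of succinate dehydrogenase, was at 46.8, 46.4 and 45.8 FPKM in Control, 47.5, 45.6 and 45.4 in LPS, 54.0, 49.4 and 49.99 in PINT shRNA1, and 51.2, 52.1 and 53.5 in PINT shRNA1+LPS. It rose by 0.14 ± 0.042 and 0.18 ± 0.042 (limma, adjusted p = 0.0301 and 0.00877). The first SDHB call was lost under 10 of 27 alternatives and the second under none. The other subunits of complex II were not called: SDHA was at -0.32 ± 0.127 in the first comparison (limma, adjusted p = 0.0865), with groups that did not overlap.

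COX6B1 (ENSG00000126267), a subunit of cytochrome c oxidase on the side of the intermembrane space, was at 102.3, 100.6 and 100.3 FPKM in Control, 98.7, 98.2 and 103.0 in LPS, 93.0, 84.4 and 91.4 in PINT shRNA1, and 90.3, 84.5 and 86.2 in PINT shRNA1+LPS. Every library labelled with the hairpin lay below every library without it. COX6B1 fell by 0.17 ± 0.043 and 0.20 ± 0.043 on the log2 scale (limma, adjusted p = 0.0123 and 0.00561). ATP5H (ENSG00000167863), subunit d of the peripheral stalk of the ATP synthase, was at 129.2, 125.7 and 121.8 FPKM in Control, 127.1, 124.6 and 125.3 in LPS, 115.3, 113.0 and 119.6 in PINT shRNA1, and 106.8, 105.8 and 112.0 in PINT shRNA1+LPS. Its groups did not overlap either. ATP5H fell by 0.11 ± 0.036 and 0.21 ± 0.036 on the log2 scale (limma, adjusted p = 0.0393 and 0.00137), and the first call was lost under 11 of 27 alternatives.

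**Figure D3:**
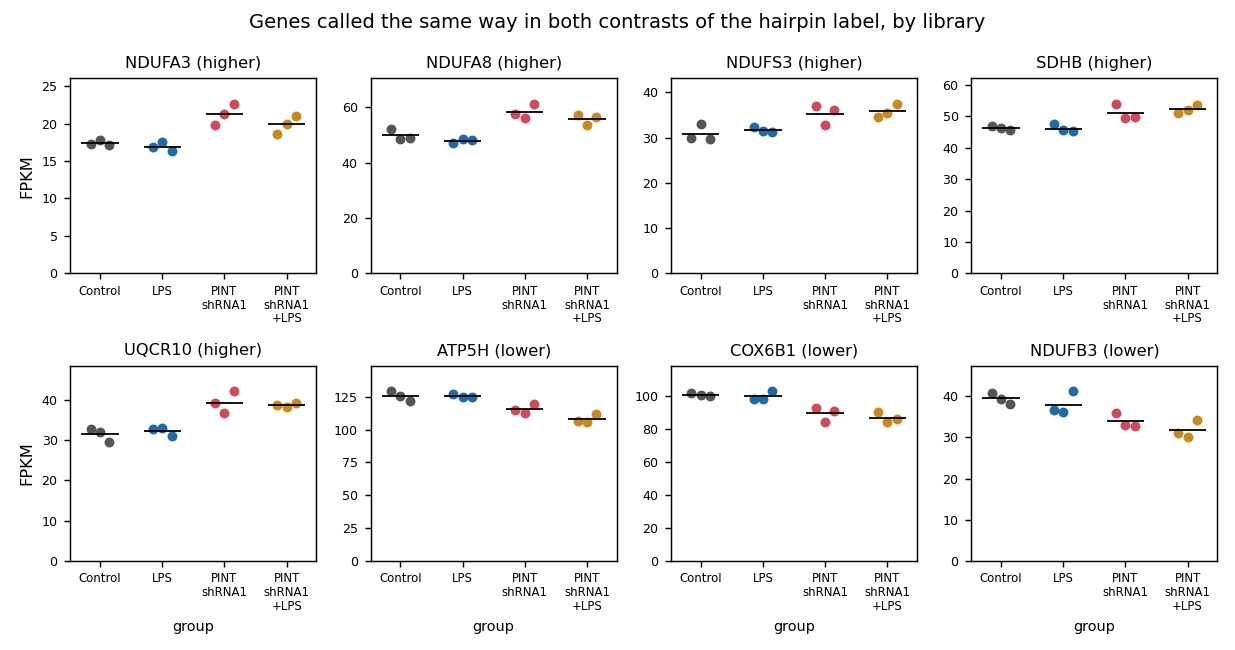
Each panel gives 1 of the 8 genes called in the same direction in both comparisons of the hairpin label, with FPKM of each library on a y axis from 0, the 4 groups on the x axis and the group mean as a line. The shifts are small beside the levels: UQCR10 moves from 29.5 to 33.1 FPKM without the label to 36.8 to 42.1 with it, and COX6B1 from 98.2 to 103.0 down to 84.4 to 93.0.

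Another 4 members were called only against Control, where a difference between the comparisons was not called for any (interaction, 0 of 70). ATP5F1 was at 65.0, 59.5 and 64.8 FPKM in PINT shRNA1 and 63.8, 52.1 and 62.7 in PINT shRNA1+LPS. It rose by 0.44 ± 0.121 against Control (limma, adjusted p = 0.0218; lost under 4 of 27 alternatives) and was at -0.05 against LPS, where its level without the label was higher, as given above. NDUFB2, of the membrane arm, was at 34.8, 36.5 and 34.3 FPKM in Control, 43.9, 37.9 and 45.2 in LPS, 43.5, 40.0 and 49.0 in PINT shRNA1 and 41.2, 44.5 and 46.1 in PINT shRNA1+LPS. Its Control libraries were the lowest 3 of 12. NDUFB2 rose by 0.32 ± 0.083 against Control (limma, adjusted p = 0.0157). UQCRC2, a core protein of complex III, rose by 0.24 ± 0.046, from 32.5 to 35.4 FPKM up to 38.5 to 41.7 (limma, adjusted p = 0.00361). Against LPS UQCRC2 was not called, but the groups were apart there too, at 34.4 to 35.2 FPKM in LPS and 37.0 to 38.1 in PINT shRNA1+LPS. UQCRH rose by 0.20 ± 0.041, from 127.8 to 129.4 FPKM up to 141.7 to 152.7 (limma, adjusted p = 0.00472). In LPS and PINT shRNA1+LPS the UQCRH values overlapped (131.3 to 140.9 FPKM and 130.8 to 140.6).

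Of the 8 members called only against LPS, 5 were lower and 3 higher. ATP5A1, the alpha subunit of the catalytic head of the ATP synthase, was at 80.3, 91.5 and 117.2 FPKM in LPS and 65.8, 65.1 and 69.9 in PINT shRNA1+LPS. The groups did not overlap, and ATP5A1 fell by 0.50 ± 0.119 on the log2 scale (limma, adjusted p = 0.00885), the largest called change among members. In the libraries without LPS it was at 75.8, 88.0 and 77.2 FPKM in Control and 74.6, 65.0 and 76.1 in PINT shRNA1, which overlapped. ATP5C1, the gamma subunit that turns within that head, fell by 0.29 ± 0.073 on the log2 scale, from 81.7 to 91.0 FPKM down to 68.1 to 74.9 (limma, adjusted p = 0.0134). NDUFS5, an accessory subunit of complex I, fell by 0.27 ± 0.056, from 66.1 to 75.8 FPKM down to 56.6 to 60.7 (limma, adjusted p = 0.00499). NDUFA12 and NDUFA9, of the arm of complex I that reaches into the matrix, were lower at -0.21 ± 0.070 and -0.12 ± 0.040 (limma, adjusted p = 0.0404 and 0.0486), calls lost under 10 and 15 of 27 alternatives.

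NDUFS8 was the highest of the called members against LPS. It was at 20.3, 21.3 and 17.9 FPKM in LPS and 26.2, 25.4 and 24.7 in PINT shRNA1+LPS, which did not overlap. NDUFS8 rose by 0.35 ± 0.081 (limma, adjusted p = 0.00798), and without the GC trend it stood at 0.16 and was not called. In Control it was at 22.5, 23.5 and 25.7 FPKM and in PINT shRNA1 at 22.5, 21.1 and 25.3. COX6A1 rose by 0.17 ± 0.056, from 111.0 to 121.4 FPKM up to 128.3 to 133.7 (limma, adjusted p = 0.0462), a call lost under 12 of 27 alternatives. UQCR11, a small subunit of complex III, rose by 0.24 ± 0.077 (limma, adjusted p = 0.0363), but a second entry of the symbol (ENSG00000267059) held 3.51 to 4.68 FPKM in LPS and 0.196 to 2.57 in PINT shRNA1+LPS. With both entries summed the change was 0.08 and was not called (limma, adjusted p = 0.409). That fit still called 8 members higher and 8 lower (all genes: 3034 and 2002), so another higher call was gained. NDUFB8, not called in the main fit, also has a second entry (ENSG00000255339). It held 0.208 to 0.832 FPKM in LPS and 1.29 to 1.87 in PINT shRNA1+LPS.

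By complex, the called members were spread over all 5. In PINT shRNA1 against Control the counts were 5 of 36 in complex I (4 higher, 1 lower), 1 of 4 in II (higher), 3 of 8 in III (all higher), 1 of 11 in IV (lower) and 2 of 11 in V (1 each way). In PINT shRNA1+LPS against LPS they were 8 of 36 (4 each way), 1 of 4 (higher), 2 of 8 (both higher), 2 of 11 (1 each way) and 3 of 11 (all lower). The shares of all genes called were 27.3% and 29.2%, and 34.4% and 36.2% at or above the level of the lowest member, so the 37.5% (3 of 8) and 25% (2 of 8) of complex III lay near them. Complex III, singled out after these values were seen, had the highest median change of the 5 in both, 0.16 and 0.10, and 7 and then 8 of its 8 members were above 0. Over the alternatives its median stayed above 0, at 0.11 to 0.22 and 0.05 to 0.15, and 7 and 5 to 8 members were above 0. Its summed FPKM was 407 to 438 in Control and 447 to 480 in PINT shRNA1, which did not overlap, and 410 to 434 in LPS and 433 to 456 in PINT shRNA1+LPS, which did. Within complex I, 0 of 10 members of the NADH-oxidizing module were called in the first comparison and 1 in the second. In the ubiquinone-binding module 1 and then 3 of 6 were called, and in the membrane arm 4 and 4 of 20, beside those same shares of all genes.

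**Figure D4:**
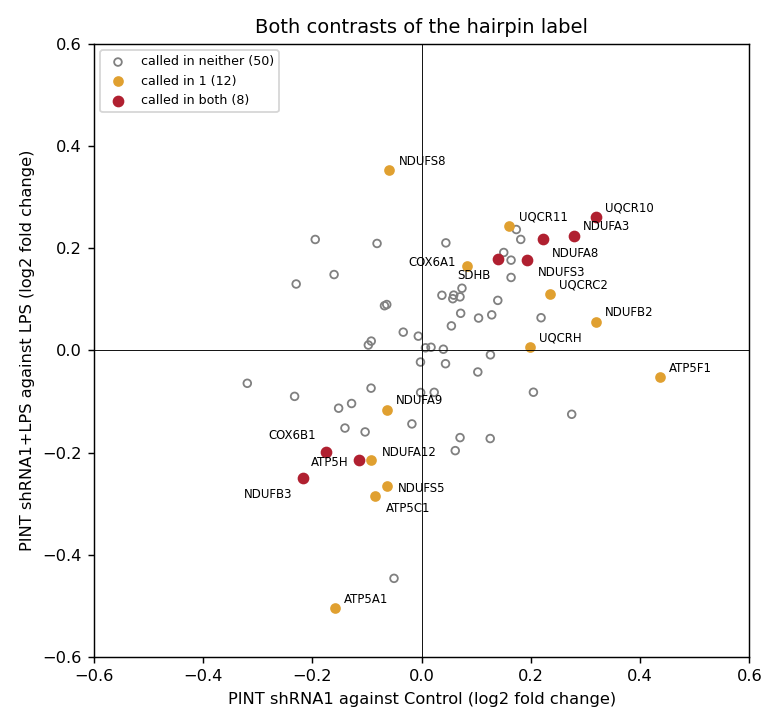
Each point is 1 of the 70 genes, with its log2 fold change in PINT shRNA1 against Control on the x axis and in PINT shRNA1+LPS against LPS on the y axis, coloured by the number of comparisons in which it was called. The 8 genes called in both lie in the upper right (UQCR10, NDUFA3, NDUFA8, NDUFS3 and SDHB) and lower left (NDUFB3, COX6B1 and ATP5H) parts of the plot, and ATP5F1, ATP5A1 and NDUFS8 lie away from the diagonal.

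The GC content of the transcript moved with the members' changes in some comparisons. Over the 70 members Spearman's rho between GC percent (of the longest coding transcript in GENCODE 29) and the change was 0.474 in PINT shRNA1+LPS against LPS, 0.537 in PINT shRNA1+LPS against PINT shRNA1 and -0.299 in LPS against Control, but -0.114 in PINT shRNA1 against Control. Over the 16497 tested genes with a value it was 0.208, 0.239, -0.04 and 0.09 in that order. For the interaction rho was 0.542 over the members and 0.196 over all those genes. NDUFS8, nearest to the threshold of the interaction, had a GC of 63.3%. These are descriptions across genes that share libraries. The members' GC ran from 35.0% (median 47.8%) to 69.6%, and transcript length related less to the change (rho of -0.162 to 0.167 over the 5 contrasts).

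**Figure D5:**
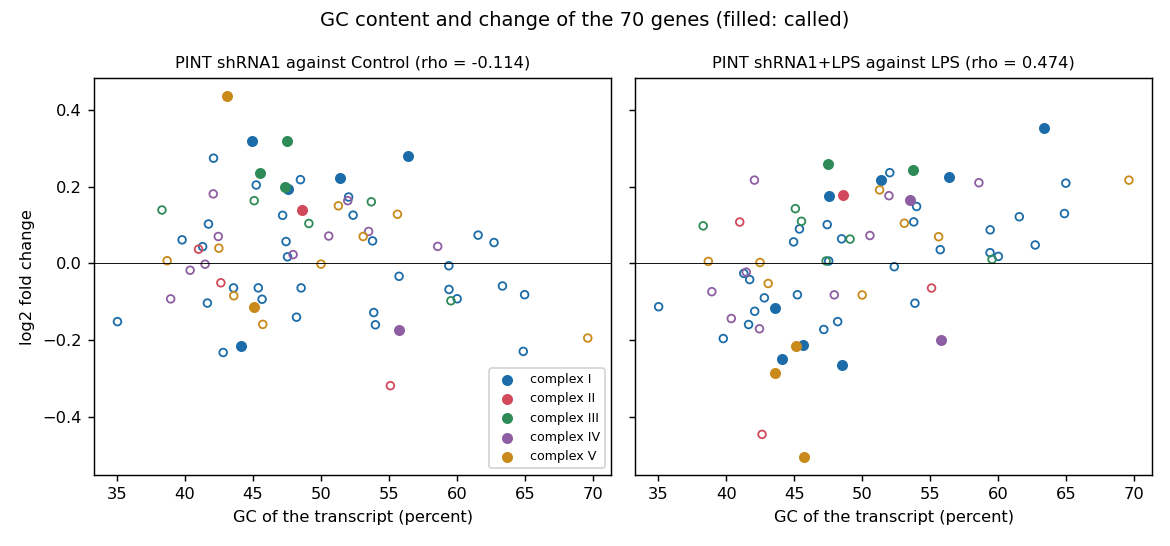
The x axis is the GC percent of each gene's transcript and the y axis its log2 fold change, for PINT shRNA1 against Control on the left and PINT shRNA1+LPS against LPS on the right, coloured by complex and filled where called. The points slope upward on the right (rho of 0.474) and show no such slope on the left (rho of -0.114).

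Exon overlap and copies limit single values. Of the 20 members called in at least 1 comparison of the hairpin label, 8 share exon positions in GENCODE 29 with another gene of at least 1 FPKM, among them NDUFS3 with PTPMT1 and NDUFA3 with TFPT, and the sources used here do not say that strand was used in counting. Pseudogene entries numbered 122 for 35 members, 6 of them with a mean of at least 1 FPKM and the highest at 17.2 (a copy of SDHA), so reads of such members are uncertain.

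Most of the 13 subunits that the mitochondrial genome encodes were called. In PINT shRNA1 against Control 2 were higher and 7 lower, and in PINT shRNA1+LPS against LPS 1 and 7, with median changes of -0.12 and -0.10. The shares called were 69.2% and 61.5%, against 27.3% and 29.2% of all genes and 34.4% and 36.2% at or above the lowest member. MT-CO2, a core subunit of cytochrome c oxidase, fell by 0.38 ± 0.024 and 0.32 ± 0.024 on the log2 scale (limma, adjusted p = 2.34e-06 and 6.63e-06), while MT-ND1 of complex I rose by 0.27 ± 0.029 and 0.26 ± 0.029 (limma, adjusted p = 9.11e-05 and 9.76e-05). Their summed FPKM was 23.4 to 25.6 times that of the 70 nuclear members in Control and 21.1 to 22.3 times in PINT shRNA1. With LPS it was 23.97 to 24.3 times without the hairpin label and 21.9 to 23.6 times with it. The ratio was lower with the hairpin label in both comparisons, with no overlap of the groups, and how mitochondrial RNA was kept or removed in making the libraries is not given in the sources used here.

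Lists of other genes of the pathway were counted in the same fits. Of all genes 27.3% were called in PINT shRNA1 against Control and 29.2% in PINT shRNA1+LPS against LPS. At or above the level of the lowest member these shares were 34.4% and 36.2%. Assembly factors were called at 33.3% and 29.4% and tested regulators at 30% and 25%, near the shares of all genes. Of 51 assembly factors, which build the complexes but do not stay in them, 11 were higher and 6 lower in PINT shRNA1 against Control, and 10 and 5 in PINT shRNA1+LPS against LPS. SCO1, which delivers copper to cytochrome c oxidase, fell by 0.41 ± 0.040 and 0.39 ± 0.040 on the log2 scale (limma, adjusted p = 5.1e-05 and 5.66e-05). COA4, another factor of that complex, rose by 0.43 ± 0.058 and 0.41 ± 0.058 (limma, adjusted p = 0.000338 and 0.000411). Of 20 tested regulators of mitochondrial gene expression 4 were higher and 2 lower, and then 3 and 2. POLG, the mitochondrial DNA polymerase, rose by 0.53 ± 0.069 and 0.37 ± 0.069 (limma, adjusted p = 0.000313 and 0.00224), and YY1 by 0.26 ± 0.038 and 0.12 ± 0.038 (limma, adjusted p = 0.000588 and 0.0395). PPARGC1A, the coactivator known for driving respiratory genes in oxidative tissues, failed the filter at 0.00613 to 0.262 FPKM.

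Of 10 other nuclear subunits and carriers 1 was higher in each comparison: CYCS, cytochrome c, at 0.26 ± 0.079 against Control (limma, adjusted p = 0.0318) and ATPIF1, the inhibitor of the ATP synthase, at 0.27 ± 0.074 against LPS (limma, adjusted p = 0.0189). Of 20 genes of mitochondrial protein import 5 were higher and 0 lower, and then 4 and 1, led by TOMM34 at 0.83 ± 0.040 and 0.80 ± 0.040 (limma, adjusted p = 2.24e-07 and 2.99e-07). Of 14 genes of the tricarboxylic acid cycle 3 were higher and 2 lower, and then 3 and 1, with SUCLG2 at -0.42 ± 0.043 and -0.43 ± 0.043 (limma, adjusted p = 7.01e-05 and 4.79e-05). Of 75 mitochondrial ribosomal proteins 6 were higher and 4 lower, and then 5 and 8, and of 80 cytosolic ribosomal proteins 8 and 16, and then 4 and 27. The shares called were 10% and 10% for the other subunits and carriers, 25% and 25% for import and 35.7% and 28.6% for the cycle. For mitochondrial ribosomal proteins they were 13.3% and 17.3% and for cytosolic ones 30% and 38.75%. Of all genes 27.3% and 29.2% were called. Of 8 tissue or condition isoforms 3 were tested. NDUFA4L2, an isoform known from hypoxic cells, was lower at -0.60 ± 0.138 against Control (limma, adjusted p = 0.00842), at a level under 1 FPKM in each group mean, and COX6B2, the testis isoform, was higher at 0.69 ± 0.175 against LPS (limma, adjusted p = 0.0134), also under 1 FPKM. COX4I2, COX6A2 and COX7B2 were listed at 0 in every library, and COX7A1 and COX8C failed the filter. On LPS against Control none of these lists had a called gene, other than 1 mitochondrial ribosomal protein that was higher. Of all genes 2.76% were called there.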

How the data were processed

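RNA of SW480 cells was measured in 12 libraries in 4 groups of 3, grouped from the labels. The deposited values are FPKM for each Ensembl gene and were made by the authors. Per the submitters' processing notes the tools included StringTie 1.3.4d, HISAT2 2.1.0 and fastp, with the build GRCh37/hg19, and no roles are given. The labels list 15 samples, since each RNA number of PINT shRNA1 has 2, but the table has 1 column for each. Another 6 columns were not used. FPKM totals were 409248 to 421487 a library, and precision is given as the SE of the fit, since absolute depth is unknown. The log2 of FPKM plus 0.5 was fitted in limma 3.58.1 (R 4.3.3) for 17214 genes, those reaching 0.5 FPKM or more in 3 or more libraries. A single model held the group means of all 12 libraries, the variance was moderated along an intensity trend, contrasts were two-sided, and p-values were adjusted by Benjamini-Hochberg across the tested genes. The fit was tested on simulated data. Named in each contrast are the 6 highest and 6 lowest called members, the member with the smallest p of each complex, the extremes of level, and leading genes among the 3 with the smallest p of each related list. The other called members are also named. The rule for members uses symbols, with the highest mean deciding between entries of 1 symbol, but the members and lists were proposed with earlier results of these data known, so no list was tested. Promoters came from RefSeq windows (GRCh38.p14), and GC, length and exon overlap from GENCODE 29 (GRCh38) by Ensembl gene, with no coordinates taken across builds. The alternatives were 4 scalings, 2 pseudocounts, 2 filters, moderation without trend or robust, a replicate block, library weights, a fit of only the groups compared, summed entries of a symbol, each library left out and, added after the data were seen, removal of the GC trend.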

Additional observations from a re-analysis of the deposited data

How the results depend on the processing

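The 28 called results of members were recomputed under 27 alternatives each, 756 values in all: 643 stayed past the threshold in the same direction, 113 kept the direction but were not called, and 0 reversed. The filters, moderation settings, replicate block, library weights and fit of only the groups compared do not alter the log2 change. Leaving out a library from outside a comparison does not either, so under all these only the call could be lost. UQCR10, NDUFA8, COX6B1 (both comparisons of the hairpin label), NDUFA3, UQCRC2 and UQCRH (against Control), and ATP5A1, ATP5H, NDUFS5 and SDHB (against LPS) were called under every alternative. Most often lost were NDUFA9 (15 of 27), COX6A1 and UQCR11 (12 each), ATP5H against Control and NDUFS3 in both comparisons (11 each), and SDHB against Control and NDUFA12 (10 each). Leaving out each library in turn gave 9 to 13 called members in PINT shRNA1 against Control, 10 to 18 in PINT shRNA1+LPS against LPS, 0 to 1 in LPS against Control and 0 in the other contrasts. Among all genes the same fits called 3551 to 4755, 3775 to 5098 and 288 to 411 in the first 3 of these contrasts. In PINT shRNA1+LPS against PINT shRNA1 they called 19 to 40 and for the interaction 17 to 26. The other alternatives gave 8 to 17 and 11 to 18 called members in the comparisons of the hairpin label, and 0 in the remaining 3 contrasts. Among all genes they called 3685 to 4852 and 4386 to 5308 in both comparisons of the hairpin label. The remaining 3 had 129 to 607 (LPS against Control), 17 to 77 (PINT shRNA1+LPS against PINT shRNA1) and 14 to 30 (interaction) of all genes called. SDHD, not called in PINT shRNA1+LPS against PINT shRNA1, ran from -0.204 to 0.0218 when each library was left out and changed sign without PINT shRNA1+LPS replicate 3. SDHD was at 82.0, 84.0 and 61.3 FPKM in PINT shRNA1+LPS and at 78.9, 86.9 and 79.7 in PINT shRNA1. Why replicate 3 of PINT shRNA1+LPS was low was not tested. With a replicate block 10 and 15 members were called in the comparisons of the hairpin label and 0 elsewhere, beside 4290 and 4668 of all genes. Elsewhere the block called 311 of all genes (LPS against Control), 17 (PINT shRNA1+LPS against PINT shRNA1) and 14 (interaction). Deviations of same-numbered libraries correlated at -0.0476 to 0.0569, and those of differently numbered libraries at -0.0582 to 0.0463. No strong shift shared by same-numbered libraries was therefore seen. Whether such samples were handled together is not stated in the labels and cannot be told from these values. Counting error cannot be given for FPKM, and the SE of a member's change was 0.0365 to 0.307 in comparisons of 2 groups.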
